A study of Drosophila melanogaster with 8 samples.

Results

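Pvr, the Drosophila receptor tyrosine kinase related to the PDGF and VEGF receptors of vertebrates, and its ligands Pvf2 and Pvf3 were followed across 3 cell lines on Affymetrix DrosGenome1 arrays. Members were the probe sets that the platform's annotation pairs with one of these symbols. These 3 genes, of 10844 measured, are read by 6 of the 13966 probe sets tested, with 1 for Pvr, 1 for Pvf2 and 4 for Pvf3. A probe set is a group of short array oligonucleotides read together as 1 value. Of 8 arrays, 3 carried RNA of the line RasV12 at passage 12, 1 carried RNA of the line L2 and 4 carried RNA of the line CL8. RasV12 was made from embryos with an oncogenic, constitutively active form of the GTPase Ras, and the labels describe L2 and CL8 only as cell lines. The cells of every line were grown to 70% confluence, and each RNA came from a flask of its own. Each group is therefore 1 line, so p-values measure the spread between flasks of a line and not between lines of a kind. The sources used here do not name the promoter behind the Ras transgene. No probe set is paired with Ras85D alone, so the transgene's level was not analysed here.

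Pvr sits in the plasma membrane and binds secreted ligands of the PDGF and VEGF family, Pvf1, Pvf2 and Pvf3. Receptor activation feeds the Ras to MAP kinase cascade, and in migrating cells also the GTPase Rac through the adaptors mbc and Ced-12. In the fly the pathway is known for the survival and migration of hemocytes, the blood cells, and for the guidance of border cells in the ovary. Pvf2 and Pvf3 lie side by side on chromosome arm 2L, and Pvr lies on the same arm.

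Values are log2 expression as the authors deposited them, so differences are log2 fold changes. The lines do not share 1 distribution of values, and every comparison was therefore repeated after quantile normalization of all arrays, called rescaled below. With it, the median over all probe sets shifted by 0.13 for RasV12 minus CL8, -0.26 for L2 minus CL8 and 0.38 for RasV12 minus L2. The deposited medians were 4.16 to 4.39 on the RasV12 arrays, 4.99 on the L2 array and 4.13 to 4.41 on the CL8 arrays. The upper quartiles were 8.09 to 8.17, 8.32 and 8.96 to 8.99 in the same order. RasV12 and CL8 thus differed more at the bright end, where Pvr and Pvf2 lie, than the shift of the median shows. The numbers of RasV12 carry a median of 14 decimals and those of L2 and CL8 of 9, so a separate processing run of the RasV12 arrays and a difference between the lines cannot be told apart. As a measure of background, the highest of 23 control probe sets for transcripts foreign to the fly read 3.24 to 3.47 on the RasV12 arrays, 4.04 on the L2 array and 2.98 to 3.41 on the CL8 arrays. A probe set is called within the controls in a line where no majority of that line's arrays exceeds this value. All 6 members were above the controls in at least 1 line and 4 of them in all 3 lines.

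The transcript of the receptor read high in L2 and CL8 and about 10-fold lower in RasV12 on the deposited values, with a smaller difference when rescaled. Pvr read 10.22, 10.15 and 10.24 on the RasV12 arrays, 13.54 on the L2 array, and 13.60, 13.53, 13.56 and 13.43 on the CL8 arrays. All RasV12 arrays lay below all others, and the L2 array lay inside the range of the CL8 arrays. The mean was 10.20 ± 0.048 in RasV12 (SD, n = 3) and 13.53 ± 0.073 in CL8 (n = 4). RasV12 was lower than CL8 by a 95% interval of 8.87-fold to 11.3-fold (log2 difference -3.33, limma adjusted p = 3.89e-08, and -2.63 rescaled, adjusted p = 4.73e-07). The 95% interval of the log2 difference was -3.50 to -3.15 as deposited and -2.75 to -2.51 rescaled. The intervals do not meet, so the size of the fold depends on the scaling. Against L2 the log2 difference of RasV12 was -3.34 (95% interval -3.61 to -3.07, limma adjusted p = 9.81e-07, and -2.86 rescaled). On the RasV12 arrays Pvr still stood above 90.0% to 90.7% of all probe sets, and 6.75 or more above the highest control. Only 185 of 13966 probe sets had a more negative difference between RasV12 and CL8, and 200 did when rescaled.

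L2 and CL8 were not told apart by Pvr. L2 exceeded CL8 by 0.014 on the log2 scale, with a 95% interval of -0.24 to 0.27 (limma adjusted p = 0.914). The interval limits a difference between these lines to at most 1.21-fold in either direction on the deposited values. Rescaled, the difference was 0.23 (adjusted p = 0.0511), and with arrays centred on their medians it was -0.66 (adjusted p = 0.0128), so no order of the pair holds over the scalings. The order of the lines by Pvr was thus RasV12 lowest, with L2 and CL8 above it and not separable.

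Pvf2, the ligand whose transcript was well above background in every line, was also lowest in RasV12, by a smaller difference. It read 11.69, 11.57 and 11.57 in RasV12, 12.84 in L2, and 12.80, 12.42, 12.34 and 12.62 in CL8. All RasV12 values lay below all values of the other lines, and the L2 value lay just above the highest CL8 array. RasV12 averaged 11.61 ± 0.070 (SD, n = 3) and CL8 12.55 ± 0.204 (n = 4). The log2 difference between RasV12 and CL8 was -0.94, or 1.91-fold lower (95% interval 1.58 to 2.32, limma adjusted p = 0.000253). This call was lost on rescaling, where the difference was -0.19 (adjusted p = 0.156). Against L2 the deposited and rescaled values both called Pvf2 lower in RasV12, at -1.23 (limma adjusted p = 0.00121) and -0.91 (adjusted p = 0.00478), and the call was lost when arrays were centred on their medians (-0.50, adjusted p = 0.132). L2 exceeded CL8 by 0.30 (95% interval -0.11 to 0.71, limma adjusted p = 0.162), which passed the test only when rescaled (0.72, adjusted p = 0.0141) or without CL8 replicate 1 (0.38, adjusted p = 0.043).

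Pvf3, the gene next to Pvf2, ran the other way on the brighter pair of its 4 probe sets, with higher values in RasV12 and L2 than in CL8. RefSeq lists several former gene names for Pvf3, and the sources used here do not say which part of the gene each probe set covers. Probe set 145942_at read 6.58, 6.10 and 6.44 in RasV12, 6.34 in L2, and 3.86, 4.09, 4.34 and 4.2 in CL8. The RasV12 and L2 arrays overlapped, and all 4 CL8 arrays lay below them. The difference was 4.77-fold between RasV12 and CL8 (95% interval 3.75 to 6.08, log2 2.26, limma adjusted p = 6.48e-06, and 2.52 rescaled). It was 4.65-fold between L2 and CL8 (95% interval 3.27 to 6.63, log2 2.22, limma adjusted p = 0.000193, and 2.10 rescaled). With arrays centred on their medians this log2 difference was 1.55, below its deposited 95% interval of 1.71 to 2.73, so its size depends on the scaling. The smallest margin of a CL8 array over its highest control was 0.87.

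Probe set 145945_at of Pvf3 gave a like picture with a wider spread. It read 6.03, 7.06 and 6.35 in RasV12, 7.11 in L2, and 4.64, 4.32, 4.62 and 4.42 in CL8. CL8 was again lowest on every array, and L2 lay just above the highest RasV12 array. RasV12 exceeded CL8 by 3.94-fold (95% interval 2.74 to 5.68, log2 1.98, limma adjusted p = 0.000132, and 2.28 rescaled). L2 exceeded CL8 by 6.09-fold (95% interval 3.57 to 10.4, log2 2.61, limma adjusted p = 0.00064, and 2.71 rescaled). With arrays centred on their medians this log2 difference was 1.93. Few probe sets had larger differences towards RasV12 than these, 325 for 145942_at and 381 for 145945_at of the 13966 tested.

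RasV12 and L2 did not separate on either of these Pvf3 probe sets. The log2 difference of RasV12 minus L2 was 0.037 on 145942_at (95% interval -0.49 to 0.56, limma adjusted p = 0.895) and -0.63 on 145945_at (95% interval -1.42 to 0.17, limma adjusted p = 0.150). The second of these was called lower only without RasV12 replicate 2, at -0.92 (adjusted p = 0.0127), and the first was called higher only after median centring, at 0.77. With 1 L2 array, these intervals assume that L2 varies like the other lines.

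The remaining Pvf3 probe sets lay close to background, and most of their calls changed with the scaling. Probe set 145943_at read 3.42, 3.28 and 3.11 in RasV12, 4.23 in L2, and 3.37, 3.65, 3.61 and 3.69 in CL8, and was within the controls in RasV12. It missed the threshold between RasV12 and CL8 (log2 -0.31, limma adjusted p = 0.0507, and -0.30 rescaled with adjusted p = 0.00137), and the arrays of the lines overlapped. It was called without RasV12 replicate 1 (-0.38) or CL8 replicate 1 (-0.38). On the L2 array it lay only 0.19 above that array's highest control. L2 exceeded CL8 on it by 0.65 as deposited (limma adjusted p = 0.0122) and by 0.055 rescaled (adjusted p = 0.510). Against L2, RasV12 was called lower on it in both scalings, but the size of the log2 difference depended on them (-0.96, limma adjusted p = 0.0027, and -0.36 rescaled).

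Probe set 145944_at read 3.73, 3.54 and 3.57 in RasV12, 3.63 in L2, and 2.88, 3.40, 3.08 and 3.10 in CL8. It was within the controls in L2 and CL8, so the differences between these lines given further below are at background level. RasV12 exceeded CL8 on it (log2 0.50, 95% interval 0.20 to 0.80, limma adjusted p = 0.0113, and 0.53 rescaled). With the CL8 values raised to the highest control where they lay below it, the ratio of the means was 1.27-fold, which leaves out the spread of the arrays. Between RasV12 and L2 it was not called as deposited (limma adjusted p = 0.939) and was called higher in RasV12 when rescaled (adjusted p = 0.0285). Over the 8 arrays, 145942_at correlated with 145945_at at r = 0.91 and with 145944_at at r = 0.89, while 145943_at correlated with them at -0.085 to 0.048. These correlations are carried by the differences between the 3 lines.

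Pvf1, the ligand known to guide border cells, is paired with 1 probe set and was not well above background in any line. It read 2.27, 2.13 and 2.17 in RasV12, 2.75 in L2, and 2.25, 2.38, 2.35 and 2.36 in CL8. Every array lay below its own highest control, so no fold is given.

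**Figure D1:**
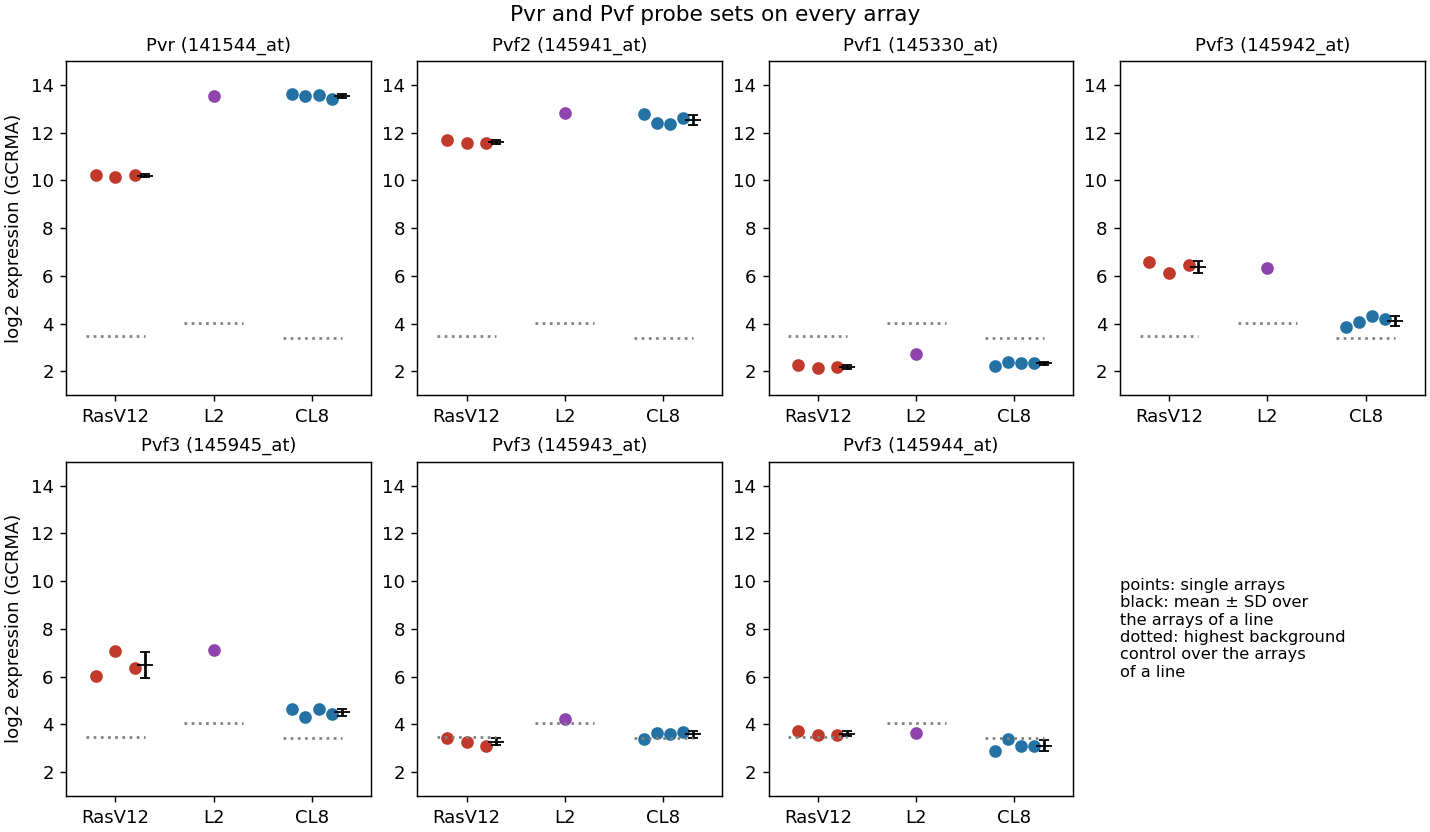
Log2 expression (y axis) of each Pvr and Pvf probe set on every array of RasV12, L2 and CL8 (x axis), with the mean and SD over the arrays of a line in black and the highest background control over the arrays of the line dotted. Pvr is lower in RasV12 than in the other lines, the Pvf3 probe sets 145942_at and 145945_at are lower in CL8 than in the other lines, and Pvf1 lies under the dotted lines throughout.

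Calls were read against those of all probe sets. Between RasV12 and CL8, 3 members were called higher, 2 lower and 1 not, while of all probe sets 49.9% were called, 11.3% higher and 38.6% lower. Rescaled, the members' counts were also 3 and 2, against 65.1% of all probe sets called, 35.4% higher and 29.8% lower. The lower members were not the same in both scalings. They were Pvr and Pvf2 as deposited, and Pvr and 145943_at, which was within the controls in RasV12, when rescaled. The members' median difference was 0.10, against -0.08 over all probe sets. The arrays of RasV12 and CL8 did not overlap for 5 of the 6 members and for 56.6% of all probe sets, so separated arrays were common in this comparison.

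Between L2 and CL8, 4 members were called higher and 0 lower, while of all probe sets 61.8% were called, 38.3% higher and 23.6% lower. The 4 were the Pvf3 probe sets, but of these 145944_at was within the controls in both lines and 145943_at lay 0.19 above the highest control of the L2 array. The count lower in limma was also 0 at an unadjusted p under 0.05. Rescaled, 3 members were higher and 0 lower, against 37.6% of all probe sets called, 20.2% higher and 17.4% lower. These 3 were Pvf2 and the brighter pair of Pvf3 probe sets. The L2 array lay outside the range of the CL8 arrays for 5 members and for 88.2% of all probe sets.

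Between RasV12 and L2, 0 members were called higher and 3 lower, while of all probe sets 53.7% were called, 9.57% higher and 44.1% lower. The count higher in limma was also 0 at an unadjusted p under 0.05. Rescaled, 1 member was higher and 3 lower, against 48.0% of all probe sets called, 22.0% higher and 26.0% lower. The lower members were Pvr, Pvf2 and 145943_at in both scalings. Of these, 145943_at was within the controls in RasV12 and lay 0.19 above the highest control of the L2 array. The call of Pvf2 was lost with median centring. The L2 array lay outside the range of the RasV12 arrays for 4 members and for 90.8% of all probe sets. The 3 comparisons share arrays, so a member's values in them are not independent.

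**Figure D2:**
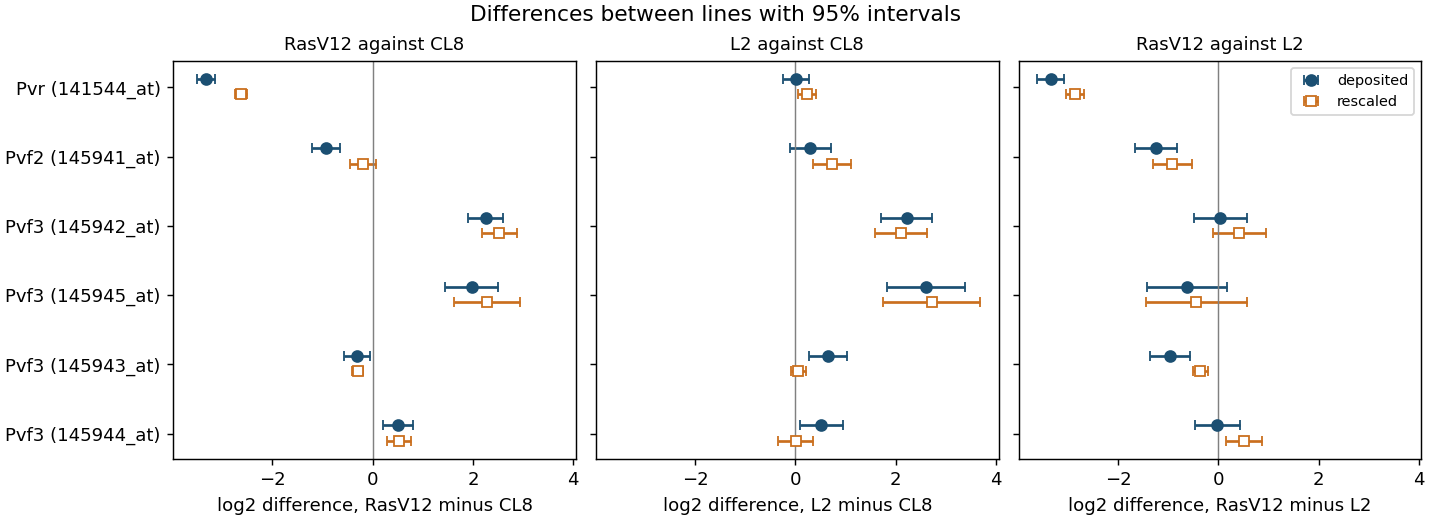
Log2 differences (x axis, first line minus second) of the 6 member probe sets (y axis) in the 3 comparisons, with 95% intervals, as deposited (filled circles) and rescaled (open squares). Pvr lies at -3.33 and -2.63 between RasV12 and CL8, Pvf2 reaches the zero line when rescaled, and the brighter pair of Pvf3 probe sets lies at 2.10 or more in L2 against CL8 in both scalings.

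Receptor and ligands were also compared within each array, a measure that a shift of a whole array leaves as it is. A difference of scale between bright and dim probe sets still enters it. The comparison was added after the values were seen. A level of one probe set cannot be set against that of another, so only the change of their difference between lines is read. The log2 value of Pvr minus that of Pvf2 was -1.47, -1.42 and -1.33 in RasV12, 0.70 in L2, and 0.80, 1.11, 1.22 and 0.81 in CL8. The RasV12 mean of this measure lay 5.24-fold below that of CL8 (log2 -2.39, and -2.44 rescaled), with no overlap of the arrays. Relative to Pvf2, the RasV12 mean of Pvf3 lay above that of CL8 by 9.13-fold on 145942_at (log2 3.19, and 2.71 rescaled) and by 7.54-fold on 145945_at (log2 2.91, and 2.47 rescaled). Relative to Pvr it lay above by 47.9-fold (log2 5.58, and 5.15 rescaled) and 39.5-fold (log2 5.30, and 4.91 rescaled) on the same probe sets. On the dim probe sets, the change relative to Pvf2 was 0.63 on 145943_at (-0.11 rescaled) and 1.44 on 145944_at (0.72 rescaled), each of which was within the controls in 1 of these lines. An exact two-sided permutation test gave p = 0.0571 for each of the 9 such differences, before and after adjustment over them, which is the smallest p that 3 arrays against 4 allow, so the threshold cannot be reached. L2 minus CL8 was -0.28 for Pvr relative to Pvf2, and 1.92 and 2.31 for the same Pvf3 probe sets relative to Pvf2.

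**Figure D3:**
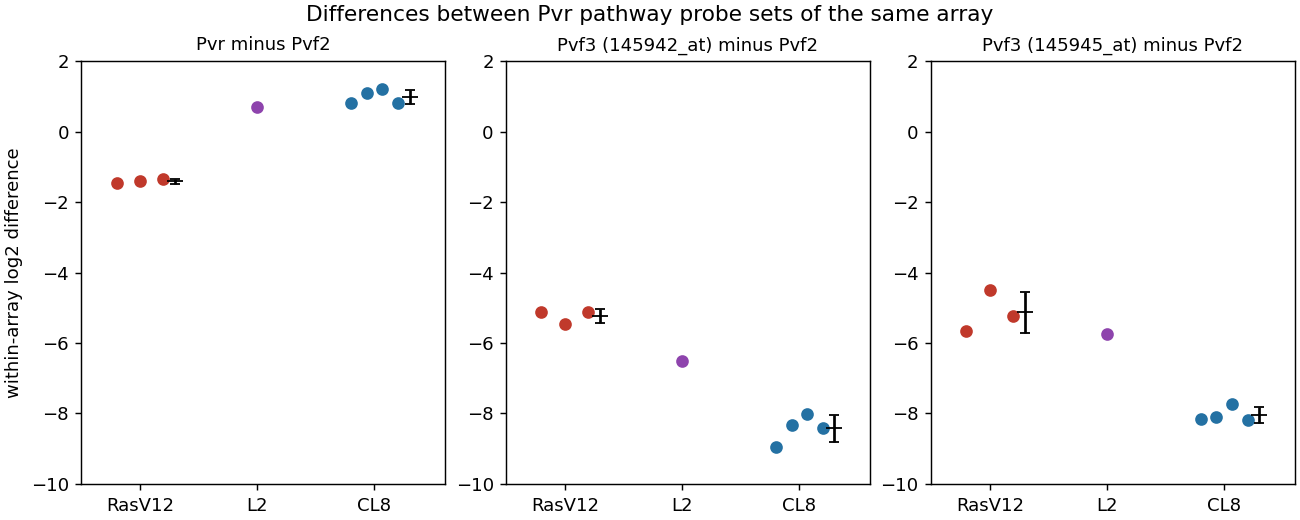
Within-array log2 differences (y axis) of Pvr minus Pvf2 and of 2 Pvf3 probe sets minus Pvf2, for every array of RasV12, L2 and CL8 (x axis), with mean and SD in black. The RasV12 arrays lie apart from the CL8 arrays in all 3 panels, and L2 lies near CL8 for Pvr but nearer to RasV12 for 145945_at of Pvf3.

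Pvr belongs to the receptor tyrosine kinases, and the lines differed in which of these they expressed. Of 18 such genes measured, Pvr included, 6 were higher in RasV12 than in CL8 and 5 lower (8 and 6 rescaled), with a median log2 difference of 0.05. Of all probe sets, 11.3% were higher and 38.6% lower (35.4% and 29.8% rescaled), and the lists below are read against the same shares. btl, the FGF receptor of the trachea, read 9.35 ± 0.27 in RasV12 (SD, n = 3) and was within the controls in L2 (3.26) and CL8 (2.88 ± 0.11, n = 4), at least 69.8-fold higher in RasV12 than in CL8. htl, the FGF receptor of the mesoderm, read 11.42 ± 0.13 in RasV12, 10.32 in L2 and 5.27 ± 0.22 in CL8 (log2 difference of RasV12 minus CL8 6.15, limma adjusted p = 3.07e-08). drl, a Ryk-type receptor that binds a Wnt protein, read 9.35 ± 0.058 in RasV12, 4.73 in L2 and 4.13 ± 0.21 in CL8 (5.22, limma adjusted p = 3.91e-08). Pvr had the largest reduction of the list, and the next was that of Egfr, the EGF receptor, at -2.27 (-1.81 rescaled) on the brighter of its probe sets, the other not being called, while dnt, a further Ryk-type receptor, differed by -1.86. The list thus holds changes in both directions, and 11 of its calls kept their direction when rescaled.

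Below the receptor act the adaptors and the Ras to MAP kinase cascade. Ras85D, phl (Raf), rl (ERK), Gap1, RasGAP1 and pnt of this list matched no measured gene, so much of the core of the cascade was not analysed here. Of 11 genes measured, 1 was higher in RasV12 than in CL8 and 5 lower, with a median of -0.41, but 4 were higher and 2 lower when rescaled, with a median of 0.40. The shares of all probe sets were 11.3% higher and 38.6% lower (35.4% and 29.8% rescaled). Sos, an activator of Ras by nucleotide exchange, read 4.86 to 5.97 in RasV12, 7.39 in L2 and 7.41 to 7.65 in CL8, a log2 difference of RasV12 minus CL8 of -2.19 (limma adjusted p = 8.23e-05, and -1.68 rescaled). Like Pvr, it was lowest in RasV12, and L2 lay just below the CL8 range. Dsor1, the MAP kinase kinase, differed by -0.81 and the adaptor gene Shc by -0.49, calls that did not hold when rescaled (-0.080 and 0.34). cnk, a scaffold of the cascade, was called lower as deposited (-0.41) and higher when rescaled (0.41).

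In the arm that runs through Rac and the JNK kinases, named genes went both ways. Of 10 genes measured, 2 were higher and 6 lower in RasV12 than in CL8 (2 and 2 rescaled), with a median of -0.63 (0.027 rescaled). Among all probe sets 11.3% were higher and 38.6% lower (35.4% and 29.8% rescaled). mbc, Rac1, Rac2, Mtl, Cdc42 and Rho1 of this list matched no measured gene. Vav, an exchange factor for Rac, read 8.18 ± 0.21 in RasV12 (SD, n = 3), 7.10 in L2 and 5.74 ± 0.32 in CL8 (n = 4), higher in RasV12 by 2.44 (limma adjusted p = 1.22e-05, and 2.99 rescaled). msn, a kinase upstream of JNK, was higher by 1.49 (2.29 rescaled). puc, the JNK phosphatase and itself a target of JNK signalling, read 9.66 ± 0.16 in RasV12, 11.46 in L2 and 11.88 ± 0.25 in CL8, a difference of -2.22 (limma adjusted p = 6.46e-06, and -1.42 rescaled). Jra, the fly Jun, differed by -1.55 and did not keep its call when rescaled (-0.76). kay, the fly Fos, was called lower on its brighter probe set (-0.83, and -0.010 rescaled) and higher on its other one, so no direction holds for it.

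Of 7 genes of the PI3 kinase and Tor arm, 0 were higher (0 also at an unadjusted p under 0.05 in limma) and 3 lower in RasV12 than in CL8 as deposited, and 4 were higher and 2 lower when rescaled. For all probe sets the shares were 11.3% higher and 38.6% lower (35.4% and 29.8% rescaled). raptor, which encodes a subunit of Tor complex 1, read 3.61 to 3.85 in RasV12, 7.10 in L2 and 6.77 to 7.43 in CL8. Its difference of -3.39 (limma adjusted p = 2.85e-06, and -3.01 rescaled) was close in size to that of Pvr, and L2 again lay within the CL8 range. Tsc1, a brake on Tor signalling, differed by -1.45 and was called lower when rescaled too. gig, its partner, was called lower as deposited (-0.49) and higher when rescaled (0.33).

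**Figure D4:**
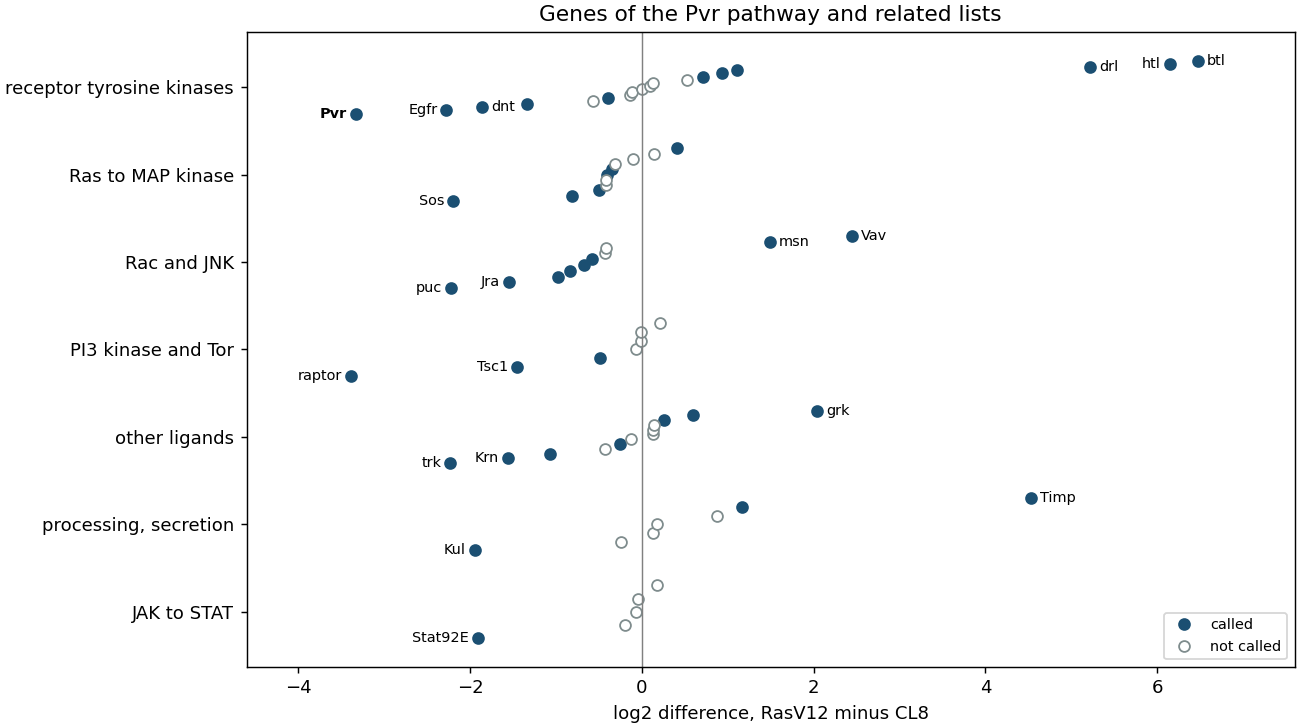
Log2 differences of RasV12 minus CL8 (x axis) for every measured gene of 7 gene lists (y axis), on the deposited values, with called genes filled and the called genes farthest from zero named. Among receptor tyrosine kinases, Pvr lies farthest left at -3.33 and btl, htl and drl lie at 5.22 or more.

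Other ligands and the proteins that release or restrain growth factors were also compared. Of 12 ligand genes of other receptor tyrosine kinases, 3 were higher and 4 lower in RasV12 than in CL8 (6 and 4 rescaled). The shares of all probe sets were again 11.3% higher and 38.6% lower (35.4% and 29.8% rescaled). Krn, an EGF receptor ligand, differed by -1.56 (-1.06 rescaled) and read 7.52 in L2. trk, the ligand of the receptor tor, differed by -2.23 on its brighter probe set, with an SD of 1.33 over the CL8 arrays, while its other probe set was not called. grk, an EGF receptor ligand, was at least 2.55-fold higher in RasV12 than in CL8, where it was within the controls. Ilp7, an insulin-like peptide gene, was within the controls in RasV12 and at least 1.16-fold lower there.

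Of 7 genes of growth factor processing and secretion, 2 were higher in RasV12 than in CL8 and 1 lower (3 and 2 rescaled). Over all probe sets 11.3% were higher and 38.6% lower (35.4% and 29.8% rescaled). Timp, an inhibitor of matrix metalloproteases, read 8.03 ± 0.094 in RasV12 (SD, n = 3), 4.28 in L2 and 3.50 ± 0.175 in CL8 (n = 4), higher in RasV12 by 4.53 (limma adjusted p = 5.53e-08, and 4.91 rescaled). kuz, a membrane metalloprotease of the ADAM family, was higher by 1.17 (1.96 rescaled) and read 12.34 in L2. Kul, a related protease, was at least 2.04-fold lower in RasV12, where it was within the controls.

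Of 5 genes of the JAK to STAT pathway, which acts beside Pvr in hemocytes, 0 were higher in RasV12 than in CL8 (0 also at an unadjusted p under 0.05 in limma) and 1 lower (2 and 2 rescaled). The shares of all probe sets were 11.3% higher and 38.6% lower (35.4% and 29.8% rescaled). The gene called lower as deposited was Stat92E, the transcription factor of the pathway, which read 10.85 to 11.06 in RasV12, 12.93 in L2 and 12.72 to 13.02 in CL8. Its difference was -1.91 (limma adjusted p = 2.06e-06, and -1.19 rescaled), and both of its probe sets were called lower. As with Pvr, the RasV12 arrays lay below all others and L2 lay within the CL8 range.

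Pvr is also counted as a gene of hemocytes, and the markers of these cells differed between the lines in both directions. Of 18 hemocyte markers measured, 7 were higher and 8 lower in RasV12 than in CL8 (8 and 8 rescaled), while 11.3% of all probe sets were higher and 38.6% lower (35.4% and 29.8% rescaled). Their summed level, taken on the linear scale, was 44166 to 47204 on the RasV12 arrays, 102032 on the L2 array and 54650 to 70266 on the CL8 arrays. gcm and gcm2 were within the controls in RasV12, and gcm2 in the other lines. The largest reductions were those of Pxn, a secreted peroxidase (log2 difference of RasV12 minus CL8 -6.45, and -5.95 rescaled), eater, a phagocytosis receptor (-5.87, and -5.24 rescaled), ush, a partner of GATA factors (-4.27, and -3.60 rescaled) and srp, the GATA factor of the blood lineage (-2.16, and -1.38 rescaled). The largest increases were those of Dscam1, an immunoglobulin-type surface receptor (6.15, and 6.56 rescaled), drpr, an engulfment receptor (2.28, and 3.05 rescaled), Sr-CI, a scavenger receptor (1.39, and 2.05 rescaled) and Hml, hemolectin (0.83, and 0.89 rescaled). A part of these markers in the difference of Pvr was not tested. Fewer cells of a type and less RNA per cell cannot be told apart in RNA of whole cultures.

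Markers of other cell types are read against the same shares, since 49.9% of all probe sets were called (65.1% rescaled). Of 8 mesoderm and muscle markers, 5 were higher and 1 lower in RasV12 than in CL8 (5 and 1 rescaled), with summed levels of 3689 to 4319 in RasV12, 1502 in L2 and 95.2 to 131 in CL8. htl, at 11.42 in RasV12 and 10.32 in L2, made up most of this sum in both lines. The median log2 level of these markers was 7.38 to 7.64 in RasV12 and 3.29 to 3.86 in CL8. In L2 it was 4.11, close to the highest control of that array at 4.04. sna and sns were within the controls in all lines. Of 9 epithelial markers, 4 were higher and 2 lower (7 and 2 rescaled), with summed levels of 7504 to 8783 in RasV12, 2830 in L2 and 6268 to 6989 in CL8. Their median log2 level was 8.13 to 8.44 in RasV12, 7.14 in L2 and 8.66 to 9.05 in CL8. RasV12 and CL8 thus stand in the opposite order by the median. Of 4 border cell markers, 1 was higher and 0 lower (1 and 1 rescaled). slbo, the defining transcription factor of border cells, was within the controls in all lines. The counts were 2 higher and 1 lower of 5 glial markers (3 and 0 rescaled), 3 and 0 of 5 neuronal (3 and 0 rescaled), 1 and 0 of 4 tracheal (1 and 1 rescaled) and 1 and 0 of 4 fat body markers (3 and 1 rescaled). Where 0 were lower as deposited, limma's count at an unadjusted p under 0.05 was 0 as well. Their part in the differences of Pvr and the Pvf genes was not tested.

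The genes beside the members on chromosome arm 2L were compared next. Neighbours are the 5 annotated genes on each side in RefSeq's order, and those between Pvf2 and Pvf3. Around Pvf2 and Pvf3, 4 of 12 neighbouring genes have a probe set paired with them alone, all on the side of Pvf2. Nuf2, a kinetochore gene, was lower in RasV12 than in CL8 (log2 difference -2.18, limma adjusted p = 8.83e-06, and -1.35 rescaled). Mnn1, the fly menin, was not called as deposited (-0.13) and was called higher when rescaled (0.48). Sem1, a small proteasome subunit gene, was not called in either scaling (-0.66, and 0.017 rescaled). Ugt307A1, next to Pvf2, was within the controls in every line, while Pvf2 read 11.57 or more on every array.

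Around Pvr, 8 of 10 neighbours have such probe sets, 11 in all, of which 5 were above the controls in RasV12 or CL8. Over all 11 probe sets, 4 were lower in RasV12 than in CL8, as Pvr was, while 38.6% of all probe sets tested were lower. These 4, on Snx6, CG8353 and CG8360, were among the 5 above the controls. Of the 11, 0 were higher in limma as deposited, also at an unadjusted p under 0.05, while rescaling called 2 probe sets of CG8086, both within the controls, higher. Snx6, which encodes a sorting nexin and lies next to Pvr, was lower on both of its probe sets, at -1.65 and -1.58 (-1.22 and -0.83 rescaled). Unlike Pvr, it was also lower in L2 than in CL8, at -1.13 and -1.55. CG8353 differed by -0.55 (-0.43 rescaled) and CG8360 by -0.47 as deposited and 0.32 rescaled. CG8292 was not called (0.29, with a 95% interval of -0.78 to 1.36). CG8349, Spn28F, CG14277 and CG8086 were within the controls in all lines.

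**Figure D5:**
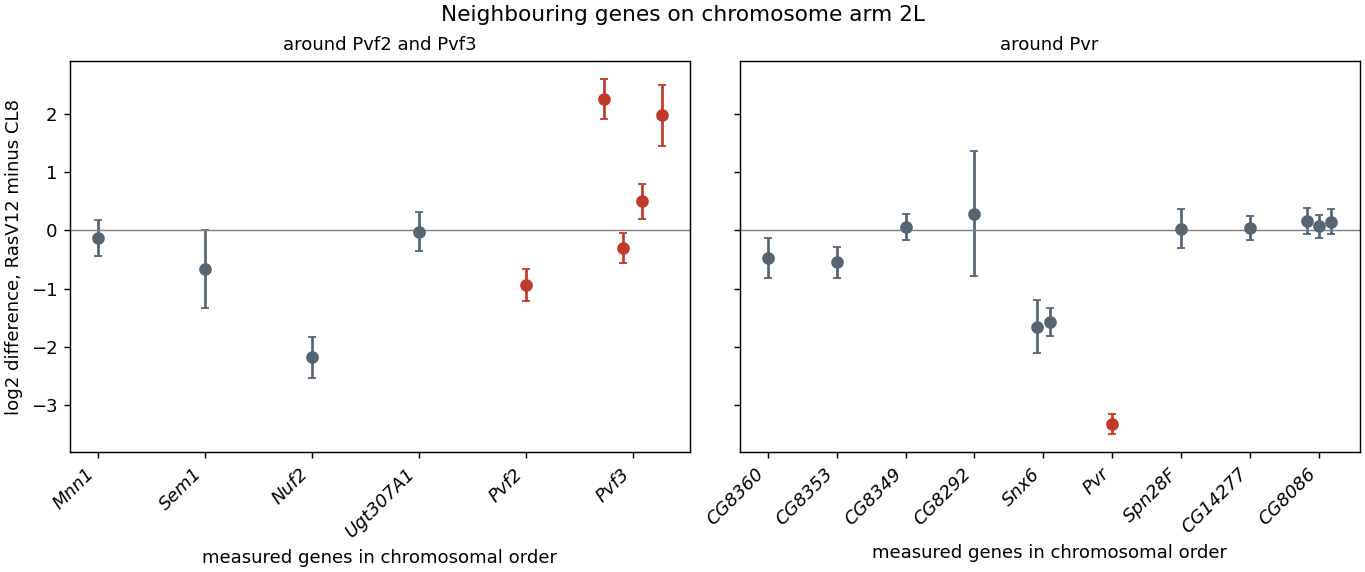
Log2 differences of RasV12 minus CL8 (y axis, with 95% intervals) for the measured genes around Pvf2 and Pvf3 and around Pvr, in their order on chromosome arm 2L (x axis), 1 point per probe set, members in red. Pvf3 on its brighter probe sets is the only gene at 1.98 or more, and Pvr at -3.33 is lower than Snx6 beside it.

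The genes most like each member were sought by the Pearson correlation over the 8 arrays, among 6943 named probe sets that span at least 1 on the log2 scale. For Pvr these were Cog8, CG42324, tank, CG13041 and sbb, each at r = 0.999. CG13041 was within the controls in all lines, sbb in RasV12 and L2, and CG42324 and tank in RasV12. Lower values in RasV12 with near-equal ones in L2 and CL8 are common, and 833 of the probe sets (12.0%) correlated with Pvr above 0.95. Cog8, a subunit gene of the Golgi COG complex, read 4.41 in RasV12, 6.80 in L2 and 6.84 in CL8 on average.

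For Pvf2 the closest were Cht10, a chitinase gene (r = 0.992), cuff, a piRNA pathway gene (0.991), CG15353 (0.989), promL (0.988) and sstn (0.987), and 211 probe sets exceeded 0.95. For 145942_at of Pvf3 they were SF2, a splicing factor gene (0.993), spir, an actin nucleator gene (0.990), CG9458 (0.990), CG2201 (0.989) and CG9801 (0.988), and 81 exceeded 0.95. CG15353 and CG9458 were within the controls in all lines, and Cht10 was within them in RasV12. SF2 read 12.24 in RasV12, 12.38 in L2 and 9.78 in CL8 on average. For 145945_at of Pvf3 they were zld, the early zygotic transcription factor (0.991), CG5731 (0.983), rig (0.982), the dimmer probe set of kay (0.976) and kuz (0.974), and only 29 exceeded 0.95. In CL8, zld was within the controls. The arrays of a line are close to each other, so these values rest on 3 lines more than on 8 arrays. Ranked instead by Euclidean distance, the 5 closest genes shared 0 with this list for Pvr, 2 for Pvf2 and 1 for each of these Pvf3 probe sets.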

How the data were processed

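The authors deposited log2 expression values, 1 column per array, computed with GCRMA (background correction by probe GC content, normalization across arrays, summary per probe set), per the series' design text. The sources used here do not say whether all arrays shared 1 run. GCRMA and the range of the deposited values give the log2 unit. After 44 controls were left out of 14010 probe sets, 13966 remained for testing. Of these 12443 were paired with 1 gene in the platform's annotation, 327 with several and 1196 with none. Symbols were updated through gene identifiers to RefSeq (assembly Release 6 plus ISO1 MT, names and gene order only) for 12394.

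limma 3.58.1 in R 4.3.3 was fitted to all 8 arrays at once (lmFit, contrasts, eBayes), as the design text names limma, with p-values adjusted by Benjamini and Hochberg's method across every probe set tested, and a threshold of 0.05. L2, with 1 array, adds nothing to the estimate of spread. Precision is set by how few arrays there are, with a median standard error of 0.114 for RasV12 against CL8, 0.167 for L2 against CL8 and 0.172 for RasV12 against L2. Bounds ("at least") compare the brighter line's mean with the mean, over the dimmer line's arrays, of whichever is higher, the probe set or the highest control. They are ratios of means and leave out the spread of the arrays.

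In lists a gene stands by its brightest probe set. Named are all members, per list the 4 called genes that differed most between RasV12 and CL8 (all if 5 or fewer were called), the neighbours and the 5 most similar genes. Egfr, dnt, kay, Pvf1, the hemocyte markers given with values and the background-level markers were named after their values were seen. Members and lists were chosen with earlier results of these data known. Alternatives were other scalings, a filter on dim probe sets, another variance prior, fewer arrays and a replicate block. The script was tested on simulated data.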

Additional observations from a re-analysis of the deposited data

Results flagged for a closer look

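In CL8, the only line with 4 arrays, the members and the named list genes (28 probe sets) were checked for an array far from the others, which chance gives in about 1 of 20 groups, and 2 stood out, neither a member. Ilp7 read 3.42 on CL8 array 1 against 3.59 on the other arrays. Tsc1 read 7.32 on CL8 array 2 against 6.55 to 6.67 on the others.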

How the results depend on the processing

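The calls of Pvr and of 145942_at and 145945_at of Pvf3 between RasV12 and CL8, of these Pvf3 probe sets between L2 and CL8, and of Pvr between RasV12 and L2, kept their direction and their side of the threshold under every alternative run. The cause of the changes that follow was not tested. After quantile normalization, Pvf2 between RasV12 and CL8 fell to -0.19 and was not called, 145943_at was called at -0.30, Pvf2 between L2 and CL8 was called at 0.72, and 145943_at (0.055) and 145944_at (0.0057) lost their calls there. Between RasV12 and L2, 145944_at turned to 0.52. The count called between L2 and CL8 was 5245 against 8636. With median centring the values between L2 and CL8 turned for Pvr (-0.66), Pvf2 (-0.37), 145943_at (-0.017) and 145944_at (-0.15). Between RasV12 and L2, 145944_at (0.71) and 145945_at (0.11) turned, Pvf2 was not called (-0.50) and 145942_at was (0.77). Between RasV12 and CL8, 145943_at was called at -0.25, and at -0.31 with the other variance prior. With dim probe sets left out, 145944_at between L2 and CL8 (0.52) was not called. Without CL8 arrays 1 and 2, 145943_at was called between RasV12 and CL8 (-0.38). Without CL8 arrays 3 and 4, 145944_at was not called against RasV12 (0.47) or L2 (0.49), and Pvr between L2 and CL8 was -0.020. Leaving out 1 array at a time changed a call or a sign of members in 7 results. Between RasV12 and CL8 this was 145943_at (-0.38 to -0.23). Between L2 and CL8 it was Pvr (-0.019 to 0.038), Pvf2 (0.23 to 0.38) and 145944_at (0.44 to 0.61, not called without RasV12 replicate 1, 2 or 3 or CL8 replicate 3 or 4). Between RasV12 and L2 it was 145942_at (-0.064 to 0.17), 145944_at (-0.077 to 0.018) and 145945_at (-0.92 to -0.40).

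Rescaled, the genes called between RasV12 and CL8 numbered 4 against 8 (Rac and JNK), 6 against 3 (PI3 kinase and Tor), 5 against 3 (processing) and 4 against 1 (JAK to STAT, 2 with all probe sets counted). Between L2 and CL8 they numbered 2 against 6 (Ras to MAP kinase), 1 against 3 (PI3 kinase and Tor), 3 against 6 (processing) and 4 against 2 (JAK to STAT), and between RasV12 and L2 3 against 5 (JAK to STAT). The series' design text names no pairing of RasV12 and CL8 arrays. Same-numbered arrays deviated from their line's mean with correlations of -0.245, -0.098 and -0.088, and no array correlated best with its own number. Deviations from means of 3 and 4 arrays depend on each other, so these correlations cannot exclude a pairing. The fit with the number as a replicate block left out L2 and CL8 replicate 4. It called 6334 probe sets against 6969 and changed no member's call. Pvr was -3.36, as it was without CL8 replicate 4 and no block. The effect of the block on the count cannot be told apart from that of the arrays left out. Signal over background limits 145943_at, 145944_at and Pvf1, and 145944_at was within the controls in both L2 and CL8, so its values there are at background level.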
